A study of Homo sapiens with 18 samples.

Results

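The olfactory receptor (OR) genes of chromosome 11 were examined for peaks of H1.2 and H1.5, which are variants of the linker histone. Members were the protein-coding genes of hg19 chromosome 11 whose names consist of OR, a number, a letter or letters and a number, such as OR51E2. The rule gave 171 genes, out of 1317 protein-coding genes on the chromosome and 20098 on chromosomes 1 to 22 and X, where 399 genes carry such a name. A further 6 protein-coding genes with an OR name ending in P were kept out of the OR genes, the comparison genes and the other genes. They stayed among the 1317 genes over which shares of all genes are given.

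The chromatin came from undifferentiated HL-60/S4 cells, a human myeloid leukaemia line. In xChIP, formaldehyde-fixed chromatin was sonicated before the antibody was added, whereas in xxChIP fixed and permeabilized cells received the antibody, were fixed again and were then sonicated. An antibody against H1.2 or against H1.5 was used with each protocol, 3 replicates each, which gave 12 immunoprecipitated samples. The peaks of the 3 replicates had been merged into 1 list per protocol and antibody, and the 6 Input samples (3 per protocol) were not analysed here. The 4 lists are called xH1.2 and xH1.5 when they came from xChIP, and xxH1.2 and xxH1.5 when they came from xxChIP, and the figures spell these names out. They hold positions without scores or read numbers, so the depth is unknown and no spread between replicates could be computed. Values below describe the 4 merged lists, and the intervals given with shares cover counting error only. Neighbouring OR genes lie close together and are not replicates of each other.

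OR genes encode the odorant receptors of olfactory sensory neurons, which couple to a G protein that raises cyclic AMP and opens a cyclic nucleotide-gated channel. They lie in clusters, have their coding sequence in a single exon, and nearly all of them are silent in any given neuron, where they are packed into heterochromatin. Class I receptors resemble those of fish, and class II receptors make up most of the repertoire of land vertebrates. RNA from HL-60/S4 cells was not analysed here.

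Of the 171 genes, 168 had a single coding exon, and the coding length had a median of 942 bp (864 to 1110 bp). The genes fell into 8 clusters when members less than 1 Mb apart were joined, and 158 genes lay in the 4 clusters of at least 10 genes. The first of these ran from OR52B4 to OR10A3 (chr11:4388493-7963255, 67 genes) and held all 55 class I genes of families 51, 52 and 56 beside 12 class II genes. The others held class II genes alone and ran from OR4A16 to OR5AK2 (chr11:55110677-56757318, 48 genes), from OR9Q1 to OR10V1 (chr11:57791353-59481318, 21 genes) and from OR6X1 to OR8A1 (chr11:123624288-124452838, 22 genes). The OR genes sat in AT-rich sequence, with a median local GC content of 37.2% in the 50 kb around the transcription start site (TSS).

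The comparison genes were the other protein-coding genes of chromosome 11 whose local GC lay between the 5th and the 95th percentile of the OR genes (34.6% to 41.4%). There were 298 of them among 1140, with a median local GC of 39.2%. They remained different from the OR genes near the start itself, since the GC content of the TSS window (TSS ± 1000 bp) had a median of 47.1% and 62 CpG dinucleotides, against 39.0% and 12 in OR genes. They were also longer, with a median of 40832 bp against 1074 bp.

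Stretches of 250 bp directly upstream of the TSS are printed for 5 OR genes that stand for the arrangements described below. They were read from GRCh37 on the strand of the gene, and capitals mark CG and the homeodomain core TAATTA. OR8K1 (chr11:56113265-56113514, plus strand) and OR6Q1 (chr11:57798175-57798424, plus strand) are genes under peaks of both xxChIP lists, OR5D18 (chr11:55586856-55587105, plus strand) is a gene under peaks of both xChIP lists and OR4D11 (chr11:59270799-59271048, plus strand) a gene under a long xH1.2 peak. OR52N5 (chr11:5804586-5804835, minus strand) is the OR gene farthest from a peak of any list.
OR8K1: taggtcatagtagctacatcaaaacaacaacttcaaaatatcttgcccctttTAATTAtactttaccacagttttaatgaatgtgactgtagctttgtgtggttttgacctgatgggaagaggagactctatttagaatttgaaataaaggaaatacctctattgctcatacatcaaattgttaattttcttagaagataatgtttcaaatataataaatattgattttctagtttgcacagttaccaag
OR6Q1: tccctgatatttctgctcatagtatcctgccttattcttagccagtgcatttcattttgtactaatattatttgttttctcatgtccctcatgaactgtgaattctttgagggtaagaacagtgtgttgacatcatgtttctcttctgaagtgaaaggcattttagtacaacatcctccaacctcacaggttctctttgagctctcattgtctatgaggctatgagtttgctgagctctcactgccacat
OR5D18: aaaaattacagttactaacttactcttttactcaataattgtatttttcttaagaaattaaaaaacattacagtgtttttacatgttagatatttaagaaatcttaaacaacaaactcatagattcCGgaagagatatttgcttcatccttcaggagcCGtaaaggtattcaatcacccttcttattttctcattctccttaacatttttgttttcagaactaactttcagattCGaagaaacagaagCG
OR4D11: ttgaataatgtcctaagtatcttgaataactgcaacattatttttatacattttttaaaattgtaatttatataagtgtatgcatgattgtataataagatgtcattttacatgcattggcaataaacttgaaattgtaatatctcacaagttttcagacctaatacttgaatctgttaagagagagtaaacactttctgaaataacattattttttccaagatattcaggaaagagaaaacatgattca
OR52N5: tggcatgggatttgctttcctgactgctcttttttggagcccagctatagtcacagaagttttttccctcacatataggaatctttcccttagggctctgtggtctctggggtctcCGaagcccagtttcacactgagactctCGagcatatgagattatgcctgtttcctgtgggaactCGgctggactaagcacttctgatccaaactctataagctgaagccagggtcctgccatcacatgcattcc

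OR8K1, OR6Q1 and OR4D11 had no CG in these 250 bp, OR52N5 had 3 and OR5D18 had 4. No CG was present in 58 of the 171 OR promoters (33.9%), against 8.05% of comparison promoters and 7.90% of all 1317 promoters of that length on the chromosome. TAATTA, which reads the same on both strands, was found in 31 OR promoters (18.1%), in 6.04% of comparison promoters and in 5.54% of all promoters. The promoters of the 192 OR pseudogenes of the chromosome were close to the OR promoters, with TAATTA in 16.7% and no CG in 32.8%. Median promoter GC was 36.8% in OR genes, 35.6% in OR pseudogenes and 50.6% in comparison genes. The OR promoters without a TSS peak of any list (n = 99) held TAATTA in 18.2% of cases, those with an xChIP TSS peak (n = 42) in 21.4% and those with an xxChIP TSS peak (n = 47) in 12.8%. In 78 OR genes the annotated TSS coincided with the coding start, as it did in OR8K1, OR6Q1, OR5D18 and OR4D11, so an upstream start may be missing from the annotation. A match is a description of the letters only. TAATTA holds no G or C, and the share that base composition alone would give was not computed.

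TSS windows of OR genes were mostly free of peaks. A peak of xH1.2 overlapped 23 of the 171 windows by at least 1 bp (13.5%, 95% Wilson interval 9.13 to 19.4), and over all protein-coding genes of chromosome 11 the share was 44.1%. The share for xH1.5 was again 23 windows (13.5%, 9.13 to 19.4), against 20.9% of all genes. OR genes thus had a lower share than the chromosome in both xChIP lists.

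The xxChIP lists gave the opposite order. Peaks of xxH1.2 overlapped 35 OR windows (20.5%, 15.1 to 27.1), against 11% of all genes. Peaks of xxH1.5 overlapped 26 (15.2%, 10.6 to 21.4), against 8.96% of all genes. The list with the largest share over other genes of chromosome 11, xH1.2 (48.9% of 1140), had the smallest share over OR genes, together with xH1.5.

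In each list, genes of similar local GC stood between the OR genes and all genes. Their shares were 19.5% for xH1.2, 16.1% for xH1.5, 18.1% for xxH1.2 and 11.1% for xxH1.5. The difference, OR minus comparison genes, was -6.01 percentage points for xH1.2 (95% Newcombe interval -12.5 to 1.19) and -2.66 for xH1.5 (-8.97 to 4.35). It was 2.35 for xxH1.2 (-4.83 to 10.1) and 4.13 for xxH1.5 (-2.02 to 11). All 4 intervals included 0. Without the 67 genes from OR52B4 to OR10A3 the xxChIP differences rose to 9.97 points for xxH1.2 (0.713 to 20.1) and 10.98 points for xxH1.5 (2.86 to 20.4). The xH1.2 difference shrank to -0.913 points (-9.05 to 8.57) without these genes. It also shrank, to -1.51 points, when the first cluster was kept and comparison genes were weighted by local GC. The size of the xH1.2 difference thus depended on the first cluster and on the match for GC. With windows of ± 2500 bp the xxChIP differences were 9.13 points (0.0697 to 18.2) and 12.2 points (3.47 to 21.0). Other alternatives lowered them. The xxH1.2 difference was 0.0303 points without the cluster from OR6X1 to OR8A1, 0.674 without that from OR9Q1 to OR10V1 and -1.41 with local GC in 10 kb. For xxH1.5 it was 0.0261 points with local GC in 10 kb. With windows around the start of the coding exon, chosen after seeing the data, the xxH1.5 difference was -0.318 points. The xxChIP result thus depended on the clusters included, on the window and on the match. When comparison genes were matched on the GC of the TSS window itself, a choice made after seeing the data, the xxChIP differences fell below 0, to -5.34 and -4.69 points, and the xH1.2 difference was -8.05 points (-15.8 to -0.109).

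**Figure D1:**
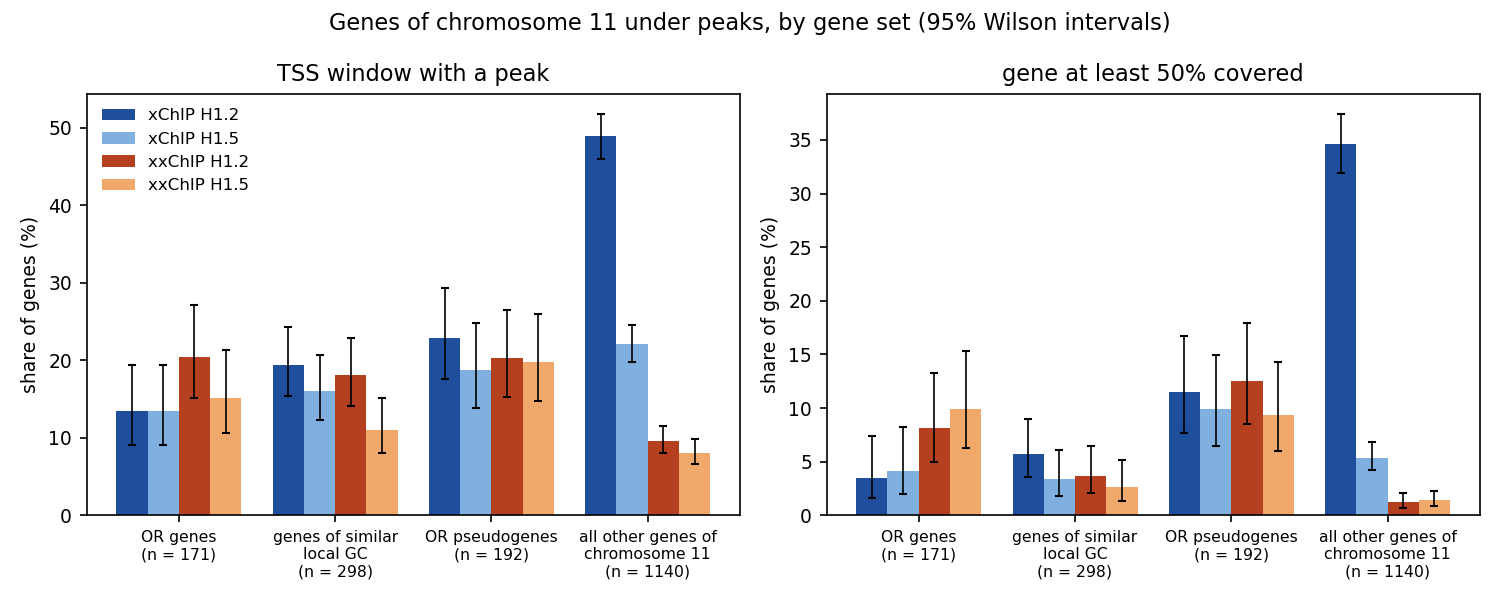
Share of genes (%) with a peak in the TSS window (left) and with at least 50% of the gene covered (right), for 4 gene sets and 4 peak lists, with 95% Wilson intervals as error bars. The OR genes and the comparison genes of similar local GC lie between 11.1% and 20.5% in the left panel, whereas xH1.2 reaches 48.9% over the other genes.

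The extent of coverage followed the same order. The median OR window was covered to 0% in each of the 4 lists, as was the median window of the comparison genes. The mean over OR windows was 4.79% for xH1.2, 6.94% for xH1.5, 11.3% for xxH1.2 and 8.76% for xxH1.5. The comparison genes had means of 11.8%, 7.21%, 9.12% and 6.21% in the same order of lists. The mean was thus lower in OR genes for xH1.2 and higher for both xxChIP lists, with no replicate spread to set beside it.

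Over the lists together, 99 OR windows (57.9%, 50.4 to 65.0) held no peak, and in the comparison genes the share was 55.0%. A peak of an xxChIP list but of no xChIP list was found in 30 OR windows (17.5%; comparison genes 15.4%, other genes of the chromosome 8.07%), and of both protocols in 17 (9.94%; 8.39% and 6.40%). A peak of an xChIP list but no xxChIP list was found in 25 (14.6%), against 21.1% of comparison genes and 49.1% of the other genes. Windows with peaks of all 4 lists were rare in each set, with none in OR genes, 1 in comparison genes (0.336%) and 3 in the other genes (0.263%). The 171 windows in chromosome order showed marked windows scattered singly or in short runs.

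**Figure D2:**
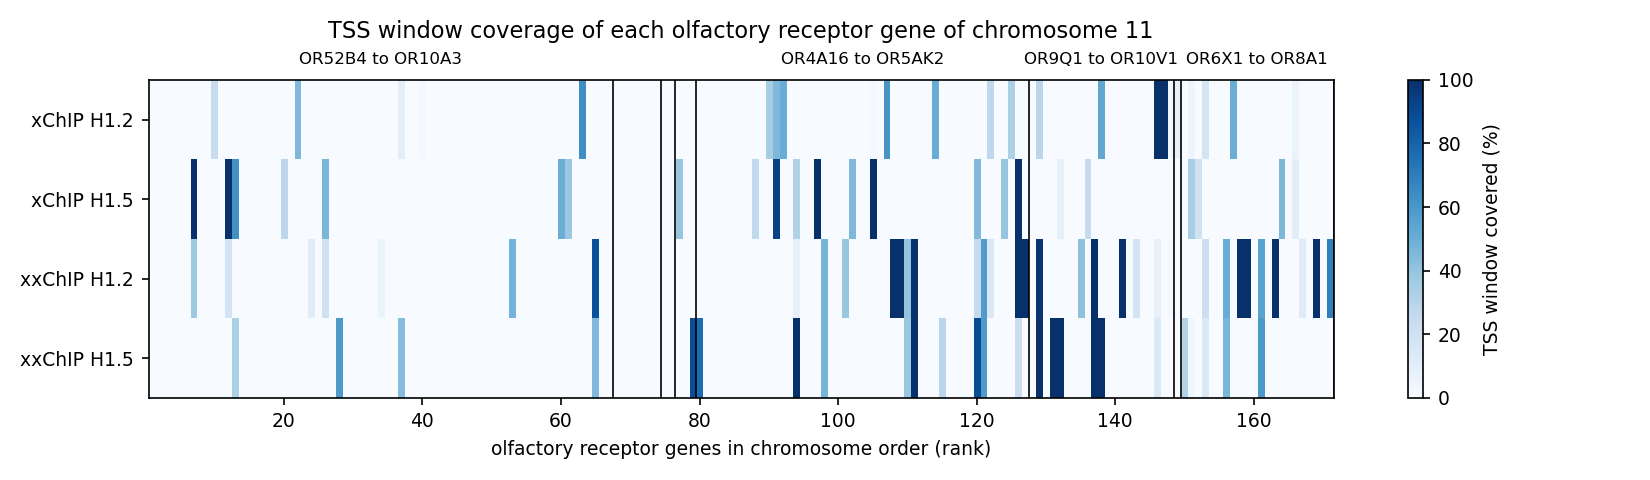
Percentage of the TSS window covered by peaks for each of the 171 OR genes in chromosome order (x axis, rank), with 1 row per list and vertical lines between clusters. The 7 genes from OR4B1 to OR4A47 are blank in all 4 lists, and xxH1.2 is darkest in the right part, from OR6X1 to OR8A1.

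The share of genes at least 50% covered separated OR genes from comparison genes more clearly, in the xxChIP lists. At least 50% of the gene was covered in 14 OR genes by xxH1.2 (8.19%, 4.94 to 13.3) and in 17 by xxH1.5 (9.94%), while 2.13% and 2.51% of all genes of the chromosome were. The xChIP lists covered 6 OR genes (3.51%) and 7 OR genes (4.09%), against 30.4% of all genes for xH1.2 and 5.16% for xH1.5. The xxChIP shares of OR genes therefore lay above those of the chromosome, and the xH1.2 share far below.

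Against the comparison genes the difference was 4.50 points for xxH1.2 (0.210 to 9.83) and 7.26 points for xxH1.5 (2.83 to 12.8), and both intervals excluded 0. It was -2.20 points for xH1.2 (-5.95 to 2.27) and 0.738 for xH1.5 (-2.69 to 5.13). Without the cluster from OR6X1 to OR8A1, the xxH1.2 difference was 1.82 points (-1.94 to 6.93), an interval that included 0. Against the 75 comparison genes no longer than the 95th percentile of OR gene length, the difference was -1.15 points for xxH1.2 (-10.4 to 5.80) and 4.61 points for xxH1.5 (-3.81 to 10.9), so both intervals included 0. Mean coverage of the gene had the other order in both xxChIP lists. It was 10.5% in OR genes against 16.4% in comparison genes for xxH1.2, and 10.1% against 13.0% for xxH1.5. In the xChIP lists the mean was lower in OR genes as well, with 5.44% against 16.2% for xH1.2 and 6.11% against 13.3% for xH1.5. Gene length moved with the result at 50%, and its part in it was not separated further.

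Any overlap with the gene gave a different order of OR and comparison genes. A peak touched 23 OR genes in xH1.2 (13.5%), 29 in xH1.5 (17.0%), 40 in xxH1.2 (23.4%) and 37 in xxH1.5 (21.6%). The shares were 75.2%, 74.5%, 77.5% and 73.2% in comparison genes and 84.0%, 67.9%, 53.1% and 52.9% in the other genes of the chromosome. Over the 4 lists 100 OR genes (58.5%) carried no peak, whereas 9.06% of the comparison genes carried none. Length was not matched here, with a median of 1074 bp in OR genes and 40832 bp in comparison genes. Of the 192 OR pseudogenes, with a median length of 929.5 bp, 61.5% carried no peak, close to the share of OR genes. The median distance from an OR gene to the nearest peak was 4319 bp in xH1.2, 3825 bp in xH1.5, 1768 bp in xxH1.2 and 2067 bp in xxH1.5. By these medians OR genes lay nearer to xxChIP peaks than to xChIP peaks, and in each list the typical gene was within a few kb of one. No distance for other genes stands beside them. The 4 large clusters also held more xxChIP peaks (407 and 401) than xChIP peaks (345 and 361).

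The named OR genes illustrate the arrangements. OR8K1, a class II receptor gene (chr11:56113515-56114474), had its TSS window and its gene covered to 100% in both xxChIP lists and to 0% in both xChIP lists. The xxH1.5 peak over it was 10447 bp long. OR6Q1 (chr11:57798425-57799378), which lies within the span of OR9Q1, was covered to 100% as a gene in both xxChIP lists, and its TSS window to 98.0% and 100%. An xH1.2 peak reached 28.2% of that window without touching the gene. These 2 genes lay wholly inside xxChIP peaks and outside xChIP peaks.

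OR8G5 and OR8B8, class II genes of the last cluster, completed the set of 4 genes at least 50% covered by both xxChIP lists and by neither xChIP list. OR8G5 (chr11:124126272-124136120) was covered to 100% by xxH1.2, inside a peak of 55148 bp, and to 56.5% by xxH1.5. For OR8B8 (chr11:124307341-124315592) the values were 100% and 61.6%. In both genes the TSS window was covered to 100% by xxH1.2 and to 0% in the 3 other lists.

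The converse arrangement was met by 1 gene. The rule was applied to OR genes only, so these counts have no share over other genes beside them. OR5D18 (chr11:55587106-55588047), a class II receptor gene, was covered to 89.6% by xH1.2 and to 91.2% by xH1.5, and to 0% by both xxChIP lists. Its TSS window was covered to 45.1% and 92.9% in the xChIP lists. The nearest xxH1.2 peak lay 1351 bp away and the nearest xxH1.5 peak 12645 bp away.

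Other genes were covered in 1 list alone or nearly so. OR4D11 (chr11:59271049-59271984) lay under an xH1.2 peak of 11575 bp, and its neighbour OR4D9 overlapped the same peak. OR5L2 (chr11:55594695-55595630) was wholly covered by an xH1.2 peak of 3936 bp, and no other list touched it. OR5F1 (chr11:55761157-55762101) lay under an xH1.5 peak of 10704 bp and OR51F2 (chr11:4842551-4843686), a class I gene, under an xH1.5 peak of 4407 bp, with 0% of either gene covered in the 3 other lists. These peaks belong to 1 antibody within a protocol.

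OR5G3 (chr11:56587049-56587992) differed in that xH1.5 and xxH1.2 each covered the gene and its TSS window to 100%. The xxH1.2 peak over it was 41060 bp long, and xxH1.5 reached 22% of the TSS window. OR9Q2 (chr11:57956542-57961525) was covered to 100% by xxH1.5 alone, under a peak of 10244 bp.

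OR51E2, a class I gene whose receptor was also described in prostate tissue, had no peak in its TSS window. Peaks covered 8.36% of the gene in xH1.2, 6.83% in xH1.5, 0% in xxH1.2 and 5.70% in xxH1.5. The xH1.5 peak covered 69.7% of the coding bases, and the other lists covered 0% of them. The genes farthest from any peak were all class I genes of the first cluster. OR52N5 (chr11:5797395-5804585) was 16437 bp from the nearest peak of any list, OR52I1 (chr11:4615269-4616243) 13890 bp, OR52N1 (chr11:5807701-5812495) 12011 bp and OR51I1 (chr11:5461800-5462744) 8692 bp.

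A few OR genes with a well-known odorant were added to the named genes after their values were seen. They are examples, beside 100 OR genes (58.5%) that carried no peak of any list over the gene. OR5A1, whose product binds beta-ionone, had its coding exon covered to 100% by xxH1.5 and to 0% in the 3 other lists. OR5AN1, a receptor for musk odorants, had its TSS window covered to 100% by xxH1.2 and to 0% in the others. Its coding exon was covered to 0% in each list. The OR5AN1 gene was covered to 40.2% by xxH1.2, 27.2% by xxH1.5, 9.14% by xH1.2 and 0.32% by xH1.5. OR10G4, a guaiacol receptor, had 50.2% of its TSS window covered by xH1.2 and 0% in the others. Its coding exon was covered to 0% in each list. The OR10G4 gene was covered to 27.5% by xH1.2 and 7.37% by xH1.5. An xxH1.2 peak also touched that gene, and no xxH1.5 peak did.

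**Figure D3:**
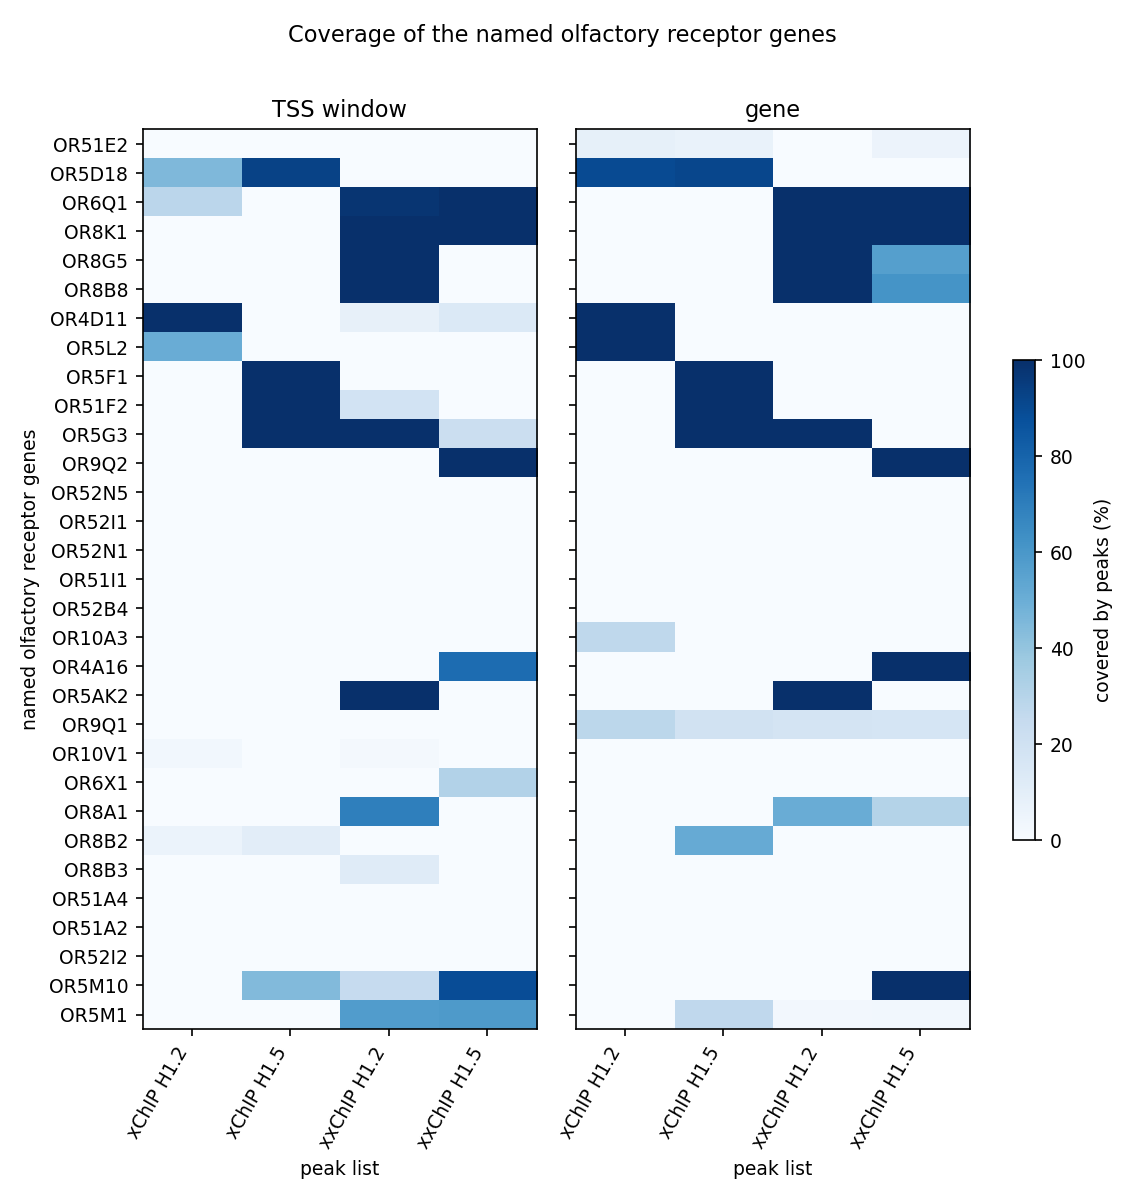
Percentage of the TSS window (left) and of the gene (right) covered by peaks of each list (x axis) for the OR genes named by rule. OR8K1 and OR6Q1 are dark in both xxChIP columns, OR5D18 in both xChIP columns, and OR52N5, OR52I1, OR52N1 and OR51I1 are blank throughout.

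Nearly identical paralogs were described separately, since the authors kept uniquely mappable reads only. Among 7 pairs with at least 95% identity of the coding sequence, OR8B2 and OR8B3 were 98.7% identical, and 42.8% of the 50-mers of either coding exon occurred once in the genome. An xH1.5 peak covered 51.2% of OR8B2 and none of OR8B3. OR51A2 and OR51A4 (98.4%) and OR52I1 and OR52I2 (97.3%) had no peak of any list over gene or TSS window. OR5M10 was wholly covered by xxH1.5, while its partner OR5M1 (97.1%) was covered to 3.09% by that list, and the TSS windows of both were covered by it, to 88.7% and 58.7%. In such genes an absent peak cannot be told apart from absent reads.

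The 50-mers of the coding exon were all unique in 101 genes, and under 90% of them were unique in 40. At least 90% of the 50-mers of the TSS window were unique in 151 OR genes. Of the 101 genes with all 50-mers unique, 11.9% had an xH1.2 peak in the TSS window, 13.9% an xH1.5 peak, 20.8% an xxH1.2 peak and 17.8% an xxH1.5 peak. In the other 70 genes the shares were 15.7%, 12.9%, 20.0% and 11.4% in the same order of lists. The shares of the 101 genes were close to those of all 171. Coverage of whole genes was not, as xH1.2 covered at least 50% of 1 of these 101 genes (0.990%) and of 5 of the other 70 (7.14%), and xH1.5 covered 2 (1.98%) and 5 (7.14%). For xxH1.2 these counts were 6 (5.94%) and 8 (11.4%), and for xxH1.5 they were 11 (10.9%) and 6 (8.57%). Mean coverage of the TSS window by xH1.2 was 2.63% in the 101 genes, against 4.79% in all. Mappability thus moved with the share of covered genes in 3 lists, xxH1.2 among them. With uniquely mappable TSS windows only, chosen after seeing the data, the gene difference from comparison genes was 5.33 points for xxH1.2 (1.05 to 10.9) and 7.41 points for xxH1.5 (3.01 to 13.2). Without genes of at least 95% identity it was 4.59 (0.204 to 10.2) and 6.87 points (2.41 to 12.6), so both differences remained under these alternatives. The filter on unique windows acts on the TSS and not on the gene. Over all comparison genes the share at least 50% covered by xxH1.2 was 3.69%. In the 101 OR genes with unique coding exons it was 5.94%, with a Wilson interval (2.75 to 12.4) that included the comparison share. No difference was computed for these 101 genes.

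Class I genes had lower shares of TSS windows with a peak than class II genes. At the main window of ± 1000 bp, the interval of the difference excluded 0 in both xxChIP lists and in neither xChIP list. Of 55 class I windows, 4 held an xH1.2 peak (7.27%), 5 an xH1.5 peak (9.09%), 6 an xxH1.2 peak (10.9%) and 3 an xxH1.5 peak (5.45%). Of 116 class II windows, 19 (16.4%), 18 (15.5%), 29 (25.0%) and 23 (19.8%) did in the same order of lists. The difference, class I minus class II, was -14.1 points for xxH1.2 (-24.5 to -1.13) and -14.4 points for xxH1.5 (-23.3 to -3.09). For xH1.2 it was -9.11 points (-18.1 to 2.36) and for xH1.5 -6.43 points (-15.7 to 5.40), with 0 inside both intervals. Under alternatives chosen after seeing the data, the xH1.2 interval excluded 0 with windows of ± 500 bp (-16.6 to -0.375) and ± 2500 bp (-26.9 to -1.74), and the xxH1.2 difference was -25.4 points with the wider window. The xxH1.2 interval excluded 0 with windows of ± 500 bp (-22.9 to -3.94) and ± 2500 bp (-38.55 to -9.73). It also did so with at least 50% of the window covered (-22.2 to -6.25). For xxH1.5 the interval excluded 0 with windows of ± 2500 bp (-31.8 to -3.00). The xxH1.5 interval included 0 with windows of ± 500 bp (-18.5 to 0.812) and with at least 50% of the window covered (-15.6 to 0.383). With the latter, the xH1.5 difference was 1.14 points (-5.32 to 10.9), which has the other sign.

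Class and cluster cannot be told apart for most of these genes, because every class I gene lies in the first cluster. Among the 12 class II genes of that cluster, 1 window held an xH1.2 peak, 2 an xH1.5 peak, 1 an xxH1.2 peak and 1 an xxH1.5 peak. Within that cluster the class difference was 2.58 points for xxH1.2 (-25.1 to 15.5) and -2.88 points for xxH1.5 (-30.2 to 8.75). It was -1.06 points for xH1.2 (-28.5 to 11.1) and -7.58 points for xH1.5 (-36.2 to 8.34). With 12 class II genes the intervals were too wide to separate the classes.

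Families differed among themselves within each class. In family OR52 (27 genes), 3 windows held an xH1.2 peak, none an xH1.5 peak, and 1 each an xxH1.2 and an xxH1.5 peak. In family OR51 (22 genes) the counts were 1, 5, 4 and 2, and its xH1.5 share (22.7%) was the largest of the families given here. The class II families OR5 (35 genes) and OR8 (23 genes) reached 12 and 8 windows with an xxH1.2 peak, or 34.3% and 34.8%, and family OR10 (16 genes) 6 windows (37.5%). Family OR4 (25 genes) had 3, 1, 2 and 4 windows. The xxH1.2 peaks on OR windows thus came mainly from families OR5, OR8 and OR10.

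The clusters differed in which list covered them. The cluster from OR6X1 to OR8A1 was covered to 35.7% of its span by xxH1.2 and to 25.1% by xxH1.5, but to 11% by xH1.2 and 12.7% by xH1.5. For comparison, the known sequence of chromosome 11 was covered to 18.9% by xxH1.2, 16.4% by xxH1.5, 26.2% by xH1.2 and 16.5% by xH1.5. There, 9 of 22 TSS windows (40.9%, 23.3 to 61.3) held an xxH1.2 peak. The first cluster had the lowest span coverage in both xxChIP lists among the 4 clusters, with 12.1% and 12.2%, and its xChIP values were 15.3% and 13.2%.

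Within the clusters, the coding exons were less covered than the sequence around them. In the first cluster, 1.21% of coding bases lay under xH1.2 peaks, against 16.3% of the span farther than 2000 bp from a coding exon. The other lists covered 3.24%, 2.04% and 4.15% of its coding bases, against 13.9%, 12.7% and 12.8% of the rest. In the cluster from OR6X1 to OR8A1, xxH1.2 covered 22.3% of coding bases against 36.5% of the rest. Coding bases were below the rest in every list in all 4 clusters, with the smallest gap for xxH1.5 in the cluster from OR9Q1 to OR10V1 (24.1% against 24.6%).

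**Figure D4:**
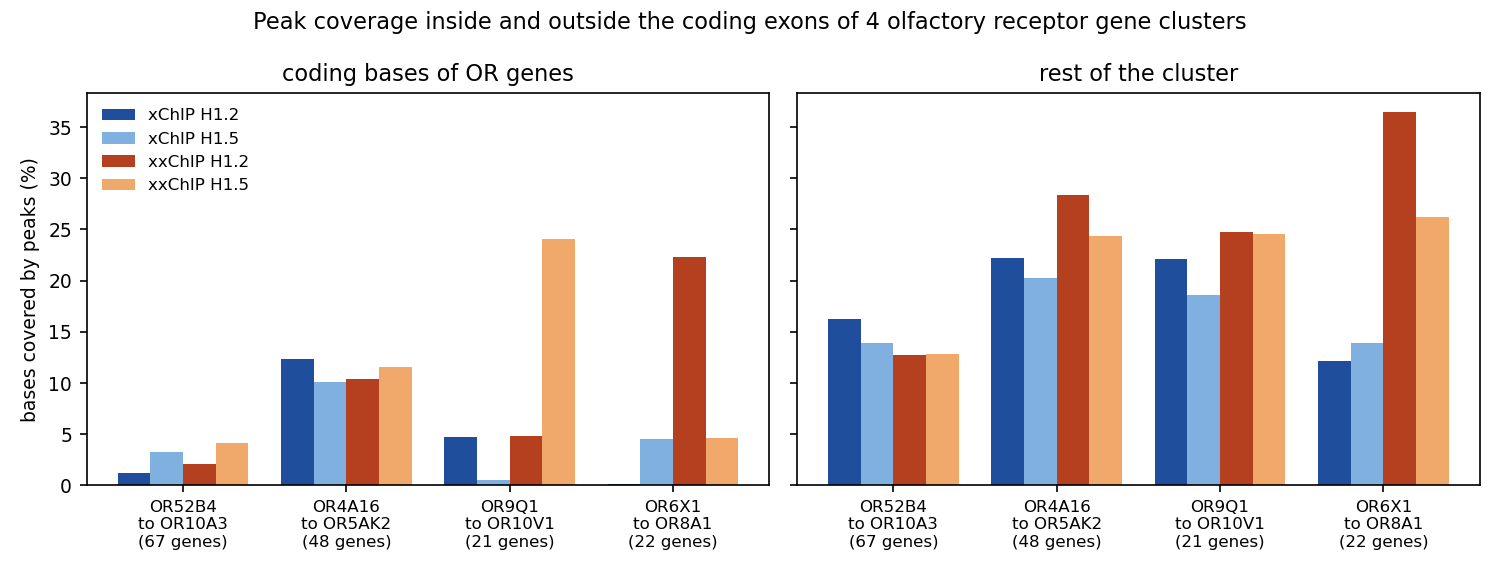
Percentage of bases covered by peaks of each list in the 4 clusters of at least 10 OR genes, for the coding bases of the OR genes (left) and for the span farther than 2000 bp from them (right). The left bars are lower than the right ones throughout, and xxH1.2 reaches 36.5% in the rest of the cluster from OR6X1 to OR8A1.

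The smaller clusters mostly showed the same. From OR4B1 to OR4A47 (chr11:48238362-48511274), 7 OR genes in a row carried no peak of any list on gene or TSS window. The span itself was covered to 30.1% by xH1.2, 31.3% by xH1.5, 18.4% by xxH1.2 and 15.7% by xxH1.5. The peaks there lay between the genes. With 7 genes, a share of 0 allows up to 35.4% by the Wilson interval. The exception was xxH1.5 in the 3 genes from OR4A5 to OR4C46, which covered 32.9% of coding bases and 29.1% of the rest, while the 3 other lists covered none of these coding bases.

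Coverage by distance gave the same picture over all 171 genes. In the first 1000 bp from the start of the coding exon, mean coverage was 4.59% for xH1.2, 4.76% for xH1.5, 7.28% for xxH1.2 and 8.97% for xxH1.5. From 20 to 50 kb away on either side it was 17.9%, 17.3%, 22% and 19.5%. The ratio of the first to the second was 0.256, 0.275, 0.330 and 0.461. In the xxChIP lists coverage rose again within a few kb, to 24.4% and 25.9% at 3000 to 4000 bp downstream, where the xChIP lists stood at 8.28% and 10.7%. At 3000 to 4000 bp upstream, coverage was 12.9% for xH1.2, 13.1% for xH1.5, 26.5% for xxH1.2 and 14.6% for xxH1.5. Both xxChIP lists thus stood above both xChIP lists at this distance on either side, and upstream xxH1.5 was close to the xChIP lists.

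A trough also lay at the TSS of comparison genes and at the start of OR pseudogenes. Comparison genes had ratios of 0.559 for xH1.2, 0.375 for xH1.5, 0.424 for xxH1.2 and 0.351 for xxH1.5. The OR pseudogenes had 0.522, 0.495, 0.621 and 0.534, all above the value of the OR coding exons in the same list. Taken from the TSS, the OR ratios were 0.248, 0.326, 0.421 and 0.409, also below the pseudogenes. They were below the comparison genes in the xChIP lists, level with them in xxH1.2 and above them in xxH1.5. With OR genes whose coding exon held unique 50-mers only, the ratios at the coding exon were 0.163, 0.230, 0.270 and 0.539. The trough at OR genes thus remained in the uniquely mappable exons. It was deepest in xH1.2 once the cluster from OR4A16 to OR5AK2 was left out, with a ratio of 0.0919, and the xH1.5 ratio was then 0.157.

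**Figure D5:**
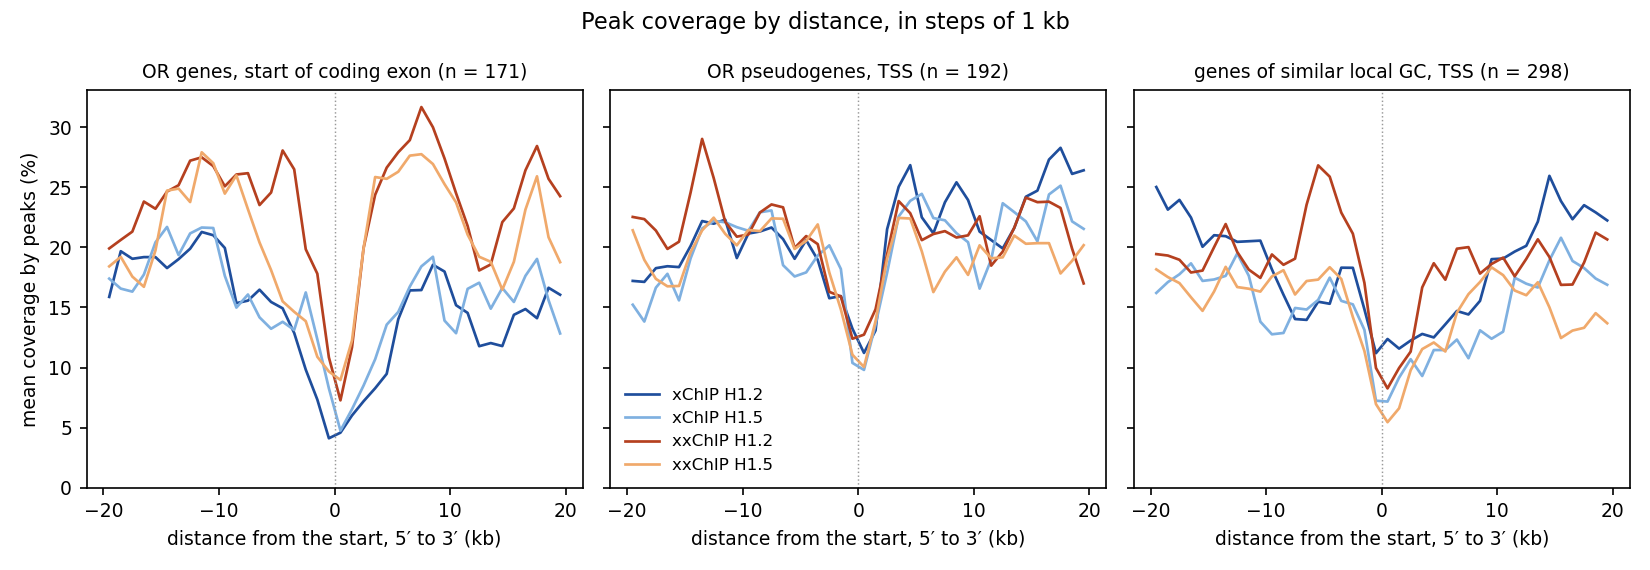
Mean percentage covered by peaks in steps of 1 kb, by distance from the start of the OR coding exon (left, n = 171), the start of OR pseudogenes (middle, n = 192) and the TSS of comparison genes (right, n = 298), read 5′ to 3′. Each list has a trough at the start, and in the left panel xH1.2 is lowest in the step before the start (4.12%) and xH1.5 in the step after it (4.76%).

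The coding exons were richer in GC than their surroundings, with a median of 45.8% against a local 37.2%. Bins of 1 kb in the 4 clusters that lay over 2000 bp from any OR coding exon or OR pseudogene and had the GC content of coding exons (40.0% to 52.8%, 2201 bins) were covered to 21.0% by xH1.2, 13.2% by xH1.5, 15.8% by xxH1.2 and 14.5% by xxH1.5. Coding bases of the OR genes in these clusters were covered to 4.89%, 5.15%, 7.74% and 9.09%. They were below bins of like GC in each of the 4 lists. Bins of lower GC (3675 bins) were covered to 18.8%, 19.6%, 26.1% and 23.5%, so GC content moved with coverage in the xH1.5 and xxChIP lists, and its part in the trough was not tested further.

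OR pseudogenes, which share sequence and neighbourhood with OR genes, were compared with them at their starts. Of 192, an xH1.2 peak overlapped 44 windows (22.9%, 17.5 to 29.4), an xH1.5 peak 36 (18.8%), an xxH1.2 peak 39 (20.3%) and an xxH1.5 peak 38 (19.8%). The difference, OR genes minus pseudogenes, was -9.47 points for xH1.2 (-17.2 to -1.47), -5.30 for xH1.5 (-12.8 to 2.38), 0.155 for xxH1.2 (-8.08 to 8.54) and -4.59 for xxH1.5 (-12.3 to 3.34), intervals computed after the data were seen. Only the xH1.2 interval excluded 0. The starts can be unlike positions, since the TSS of 70 OR genes lay at least 1000 bp from the coding start. Among the 101 OR genes with a nearer TSS, the xH1.2 share was 15.8% (9.99 to 24.2). Their difference from the pseudogenes was not computed. At least 50% of the pseudogene was covered in 22 cases by xH1.2 (11.5%), 19 by xH1.5 (9.90%), 24 by xxH1.2 (12.5%) and 18 by xxH1.5 (9.38%). The shares of OR genes were 3.51%, 4.09%, 8.19% and 9.94% in the same order. OR genes were thus below the pseudogenes in 3 lists, xxH1.2 among them, and close to them in xxH1.5. Peaks of all 4 lists met in 4 pseudogene windows, and in none of the OR genes. Over the gene itself, 7 OR genes (4.09%) and no pseudogene were touched by all 4 lists, against 57.4% of comparison genes and 38.1% of the other genes. Length was not matched in this count, with medians of 1074, 929.5, 40832 and 21550 bp in the same order of sets. The 4 lists were nearly level over pseudogenes, in contrast to the other genes of the chromosome.

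Among other tandem families of chromosome 11, 16 MS4A genes, which encode membrane proteins of blood cells, had an xH1.2 peak in 5 TSS windows, an xH1.5 peak in 4, an xxH1.2 peak in 2 and an xxH1.5 peak in 2. The counts were 1, 1, 3 and 0 for the 10 MMP genes, encoding matrix metalloproteinases, and 4, 7, 9 and 5 for the 23 TRIM genes, of which 9 lie between OR genes. Over all genes of the chromosome xH1.2 had the highest share (44.1%). In MMP and TRIM genes xxH1.2 gave the highest count, on few genes, while the mean coverage of TRIM windows was 18.8% for xH1.5 and 18.0% for xxH1.2.

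Genes of olfactory signalling and OR gene choice were taken from all chromosomes. Of 23 genes, 10 had an xH1.2 peak in the TSS window, 3 an xH1.5 peak, 3 an xxH1.2 peak and 2 an xxH1.5 peak, while the shares over 20098 genes were 48.2%, 21.6%, 8.78% and 7.92%. The window of OMP, the olfactory marker protein gene, was covered to 100% by xH1.2 and to 0% in the others. The same held for GNB1, a G protein beta subunit, RIC8B, a chaperone of the olfactory G protein, and LDB1, a cofactor of the LIM protein LHX2. CNGA4, a channel subunit whose gene lies between OR genes of the first cluster, had no peak on gene or TSS window. EBF1, a factor of olfactory neurons and of B cells, had its window covered to 100% by xH1.5 and xxH1.2 and to 69.5% by xxH1.5.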

How the data were processed

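Peaks of H1.2 and H1.5 in HL-60/S4 cells were taken as deposited. For this, the authors used Bowtie2 with hg19, discarded reads without a unique position, ran MUSIC with its defaults and merged the 3 replicates of each protocol and antibody. The deposited lists give other values than signal, namely chromosome, start and end of each merged peak. Whether Input reads entered the calling is not given in the sources used here. The lists of 1 protocol come from preparations with the same Input groups.

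Genes were taken from GENCODE 44 lifted to GRCh37, the sequence of hg19. No peak ended beyond its chromosome. A gene's TSS was the first base of its annotation. Overlap counted from 1 bp, local GC was taken in 50 kb centred on the TSS, and comparison genes lay within the 5th to 95th percentile of OR genes. Shares carry 95% Wilson intervals and differences 95% Newcombe intervals. No test over samples could be made, since the lists are merged. Interval arithmetic was tested on simulated data. Coding sequences were aligned with blastn 2.17.0, and unique 50-mers were counted over the genome. The software was Python 3.11.15 with numpy 2.4.6, scipy 1.17.1, numba 0.67.0 and matplotlib 3.10.9.

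The members and gene lists were chosen with earlier results of these data known. Named genes were OR51E2, OR genes with at least 50% of the TSS window covered in all 4 lists, those at least 50% covered by both lists of 1 protocol and to 0% by the other (at most 5 per direction), per list 2 genes under the longest peaks covering a whole gene, the 4 farthest from a peak, the first and last of each cluster of at least 10 genes, and up to 4 pairs of at least 95% identity. The comparison with the GC of the TSS window, the start of the coding exon and unique windows, and the alternatives for class and for the trough, were chosen after seeing the data.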

Additional observations from a re-analysis of the deposited data

How the results depend on the processing

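No paired analysis was possible because each list is merged over its replicates and carries no replicate number, and for the same reason no replicate could be left out. The 8 differences between OR genes and comparison genes were recomputed under 15 alternatives for TSS windows and 14 for genes. Of 116 values, 108 lay within the interval of the main value. A further alternative, peaks of at least 1000 bp, removed 1 peak of the chromosome, changed no value and is not counted. With any overlap of 1 bp, the gene differences became -61.7 points for xH1.2, -57.5 for xH1.5, -54.1 for xxH1.2 and -51.5 for xxH1.5. Against comparison genes no longer than the 95th percentile of OR gene length, the xxH1.2 gene difference turned to -1.15 points. TSS windows of ± 2500 bp raised the xxH1.5 difference to 12.2 points (3.47 to 21.0). The GC of the TSS window as match, chosen after seeing the data, gave -5.34 points for xxH1.2 and -4.69 for xxH1.5. The cause of these shifts was not tested.

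The TSS difference for xH1.2 was below 0 under all 15 alternatives (-10.8 to -0.913 points), and its interval lay below 0 in 6. The value nearest 0 came without the cluster from OR52B4 to OR10A3, with an interval of -9.05 to 8.57. Weighting the comparison genes by local GC gave -1.51 points, for which no interval was computed. The gene difference for xxH1.5 was above 0 in 13 of 14, the exception being any overlap, and its interval lay above 0 in 11. That for xxH1.2 was above 0 in 12, and its interval lay above 0 in 6. The xxH1.2 interval included 0 with short comparison genes, with GC in 10 kb, with the GC of the TSS window, without comparison genes between OR genes and without either of the clusters ending at OR5AK2 and OR8A1. The class difference for xxH1.2 became 2.58 points within the first cluster. The ratio of coverage at the coding exon to that far away stayed below 1 under all 6 alternatives in each list, between 0.0919 and 0.539.

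Peak scores, read depth and replicate support are not recorded in the lists, so the sensitivity of each list is unknown, and a window without a peak is not a window without H1. Merging can lengthen peaks. The annotated start of many OR genes is the coding start. The 4 lists were called separately, and levels were compared only as shares of bases or genes. Neighbouring OR genes lie close together, a few share a peak, and they are not replicates of each other. The intervals are therefore too narrow for statements on OR genes in general.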

Other observations

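Peaks within the 4 large OR clusters had median lengths of the same order as elsewhere on the chromosome. The median length was 2194 bp against 2373 bp for xH1.2, 2134 against 2143 bp for xH1.5, 2224 against 2191 bp for xxH1.2 and 2330 against 2059 bp for xxH1.5. Few peaks spanned neighbouring OR genes. Of the 40 xH1.2 peaks that touched an OR gene, 1 touched more than a single gene, and of the 52 xxH1.2 peaks 5 did, the most being 3 genes under 1 peak.

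Runs of OR genes without a peak of any list over the gene itself occurred in several clusters, and some of these genes had a peak in the TSS window, such as OR52B6 (43.3% in xxH1.5). Beside the 7 genes from OR4B1 to OR4A47, there were 6 in a row from OR51T1 to OR51A2, 5 from OR52D1 to OR56B1 and 5 from OR4S2 to OR5L1. The stretch from OR4S2 to OR5L1 (chr11:55415803-55579952) was covered to 28.9% by xH1.2 and to 23.4% by xxH1.2, all of it between the genes. The first and last genes of the large clusters showed no common arrangement. OR52B4, OR10V1 and OR6X1 had no peak on the gene, OR10A3 was covered to 27% by xH1.2, OR4A16 to 100% by xxH1.5 alone, OR5AK2 to 100% by xxH1.2 alone, and OR8A1 to 50.7% by xxH1.2. OR9Q1, whose annotated span of 157736 bp includes other genes, was covered to between 17.0% and 27.9%.

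Genes of similar local GC that lie between OR genes (31 genes) had an xxH1.5 peak in 8 TSS windows (25.8%, 13.7 to 43.3), against 9.36% of the 267 lying elsewhere. For xH1.5 the order was the opposite, with 9.68% against 16.9%, and the others were nearer to each other, with 22.6% against 19.1% for xH1.2 and 19.4% against 18.0% for xxH1.2.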
